A study of Rattus norvegicus with 6 samples.

Results

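The 35 genes described here copy DNA or act as cells enter S phase: the factors that license replication origins, the replicative helicase, the polymerases, the sliding clamp and its loaders, the enzymes that supply deoxynucleotides, a chromatin assembly subunit and the cyclin E and E2F regulators of the G1/S step. They were chosen by gene name, through the RefSeq accession that the arrays give for each probe. Of the 35 genes, 33 had a probe, out of 15443 named genes on the arrays, and Mcm5 and Uhrf1 were not matched to a probe. The 33 genes were read by 39 probes, and E2f1, Mcm10, Mcm2, Mcm3, Mcm4 and Rrm2 had more than 1.

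The study took liver tissue from rats (Rattus norvegicus). In 3 rats, hepatic fibrosis had been induced by ligating the bile duct, which blocks the outflow of bile, and the other 3 rats gave normal liver. Total RNA from each block of tissue was labelled with Cy3 and read on a 1-colour Agilent array, so that each group holds 3 arrays. Strain, sex, age and the time from ligation to sampling are not given in the sources used here, nor is it stated whether the normal rats had a sham operation. The arrays within a group are taken as separate rats from their labels, and the p-values measure the spread between these arrays.

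In background terms, origins are licensed in G1 when the origin recognition complex, Cdc6 and Cdt1 load the Mcm helicase, and geminin blocks Cdt1 once S phase has begun so that no origin fires again in the same cycle. The helicase becomes active with Cdc45 and the GINS complex, after which primase and the polymerases copy each strand, with Pcna holding them on the template and Fen1 and Lig1 joining the lagging strand. Many of these genes are transcribed by E2F factors. The adult liver is mostly quiescent, and it re-enters the cell cycle after loss of tissue or injury.

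Many promoters of this family are known to carry E2F sites, so the RefSeq windows around the annotated starts were searched for 4 E2F words, TTTCCCGC, TTTGGCGC, TTTCGCGC and TTTGCCGC, on both strands with overlapping matches counted. RefSeq windows (build GRCr8, 250 bases before to 50 bases after the start) were at hand for 29 of the 35 genes, while Cdc6, Ccne2, E2f1, Mcm4, Orc1 and Rrm2 had none. At least 1 word stood in the windows of 15 of the 29 genes (51.7%), against 651 of all 27457 genes with a window (2.37%). The shorter word CCAAT, on either strand, stood in 18 of the 29 genes (62.1%) and in 39.6% of all genes. Both are counts of letters, and do not say that a factor binds. Below are 80 bases of 8 windows on the strand of the gene, with the E2F words in capitals, to show how the words are placed in helicase, polymerase and nucleotide genes and, in Tk1 and Pcna, a stretch without one.

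Mcm2, chr4:122918095-122918174, minus strand: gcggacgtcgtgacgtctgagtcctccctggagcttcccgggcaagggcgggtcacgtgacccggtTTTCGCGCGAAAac
Mcm6, chr13:42404444-42404523, minus strand: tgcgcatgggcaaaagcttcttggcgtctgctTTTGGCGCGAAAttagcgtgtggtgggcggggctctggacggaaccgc
Gins1, chr3:160184840-160184919, plus strand: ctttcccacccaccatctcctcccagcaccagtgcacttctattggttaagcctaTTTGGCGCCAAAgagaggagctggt
Mcm7, chr12:22163187-22163266, minus strand: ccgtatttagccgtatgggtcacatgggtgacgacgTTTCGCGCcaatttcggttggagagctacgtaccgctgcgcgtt
Tyms, chr9:120776084-120776163, minus strand: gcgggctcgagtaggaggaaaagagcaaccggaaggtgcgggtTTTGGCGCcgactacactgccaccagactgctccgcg
Pola1, chrX:62342484-62342563, minus strand: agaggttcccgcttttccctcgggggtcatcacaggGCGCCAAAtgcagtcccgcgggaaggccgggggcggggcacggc
Tk1, chr10:103544778-103544857, minus strand: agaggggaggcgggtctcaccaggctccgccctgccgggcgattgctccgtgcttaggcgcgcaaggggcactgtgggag
Pcna, chr3:139955821-139955900, minus strand: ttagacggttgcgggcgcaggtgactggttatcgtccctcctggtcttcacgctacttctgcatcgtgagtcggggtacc

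In Mcm2, Mcm6 and Gins1 a word on each strand overlaps the other, so that the capitals read as 1 run of 12 bases. These pairs begin at -14 and -10 from the start in Mcm2, at -139 and -135 in Mcm6, and at -25 and -21 in Gins1. Mcm7 has a word at -52, which runs into a CCAAT, and another at -233 outside the stretch shown. Tyms has 1 word at -37, and Pola1 has 1 word at -172 that lies on the other strand. The words of the 15 genes are plotted by distance, and 9 of those genes hold 2 or more.

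**Figure D1:**
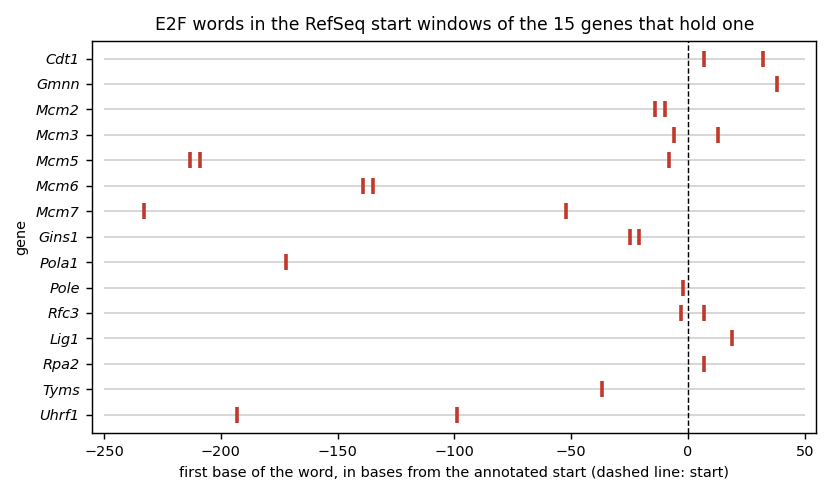
Each red tick is the first base of an E2F word (TTTCCCGC, TTTGGCGC, TTTCGCGC or TTTGCCGC, either strand), placed on the horizontal axis by its distance in bases from the annotated start (dashed line), with a row for each of the 15 genes that hold one. In Mcm2 the ticks stand at -14 and -10, and in Mcm6 at -139 and -135.

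The level of a gene is given as the log2 of the scanner's processed signal minus the log2 of the 75th percentile of that array, so that 0 is the 75th percentile and a difference of 1 between groups is a factor of 2. Levels of different probes are not compared with each other. The scanner software had marked 18.8% to 35.2% of the spots of an array as uneven or as outliers, and 24 to 52 of the 102 spots of these genes. The fits were therefore made with marked spots left out and again with marked spots kept. With marked spots left out 21 of the genes could be tested, and with them kept 30 could, the 9 gained being Gmnn, Pcna, Rfc3, Rfc4, Fen1, Lig1, Tyms, Tk1 and Dut. All 30 were above background on the 3 normal arrays when marked spots were kept, so none of them entered that fit through the fibrosis arrays alone. With marked spots left out, Orc1 was above background on 2 of its 3 normal arrays. It entered that fit through its fibrosis arrays alone, which also holds for its place in the counts. Cdt1, Pole and Rrm1 were tested in neither, since they were well above background on no normal array and on 2, 2 and 1 of the fibrosis arrays.

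The 75th percentile signal was 3755 to 4386 on the normal arrays and 4840 to 6401 on the fibrosis arrays, and 67.2% to 78.0% of the spots of an array were well above background, with no saturated spot. All arrays were on 1 slide and in 1 scan. The 3 normal arrays and fibrosis 1 lay in slide row 1, and fibrosis 2 and 3 in row 2, so that the rows differ between the groups. All 8 hepatocyte markers checked, albumin among them, were above background on at least 1 array, and their summed signal was 112 to 119 times the 75th percentile in normal liver and 63.6 to 88.9 times in fibrosis. Of the 7 cholangiocyte markers with a probe, the sum was 0.567 to 0.718 in normal liver and 7.10 to 8.66 in fibrosis. Sums in normal and fibrotic liver were 5.77 to 9.10 and 12.8 to 29.7 for 7 stellate cell and myofibroblast markers, 12.2 to 15.8 and 13.7 to 19.8 for 7 macrophage markers, and 0.900 to 1.37 and 0.961 to 1.41 for 7 T, B and NK cell markers. For 4 neutrophil markers, of which Elane was above background on no array, they were 0.170 to 0.329 and 0.717 to 2.91, for 4 endothelial markers 11.5 to 12.5 and 7.14 to 10.3, and for 6 erythroid markers 20.5 to 25.6 and 11.6 to 20.3. In whole tissue, a change in the number of cells of a type and a change in RNA per cell cannot be told apart, and the part of these cell types in the results that follow was not tested.

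Replication and S phase genes were higher in fibrotic liver where they differed, and no tested member was lower. With marked spots left out, 6 of 21 tested genes rose, namely Orc1, Mcm3, Gins1, Gins2, Chaf1b and E2f1, at an adjusted p under 0.05 in limma. Of all 7433 genes tested that way, 18.2% rose and 5.77% fell. Once marked spots were kept, 11 of 30 rose, against 15.8% higher and 9.12% lower among all 10864 genes tested. The median difference over the genes was 0.84 in the first fit and 0.91 in the second, beside 0.03 and -0.07 for all tested genes, and 20 of 21 and 27 of 30 were above 0. The groups did not overlap, with fibrosis above normal, for 15 of 21 and 20 of 30 genes, against 26.6% and 22.1% of all tested genes. In the first fit some groups held only 2 arrays, which separate more easily. Mcm10 is counted there at a difference of 0.10, with 2 arrays a group, and its groups overlapped with marked spots kept. In no tested member did the groups separate the other way, which 19.1% and 20.9% of all tested genes did.

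**Figure D2:**
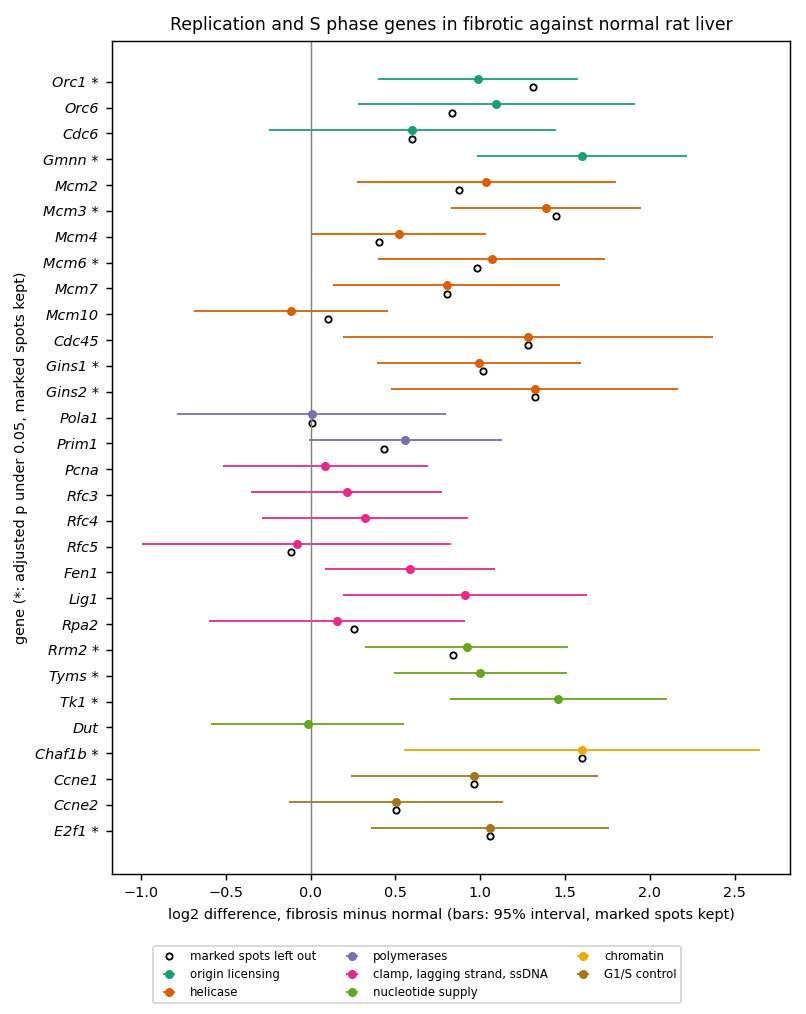
Filled points are the log2 difference, fibrosis minus normal (horizontal axis), of the 30 genes tested with marked spots kept, with bars for the 95% interval from limma and an asterisk where the adjusted p is under 0.05; open points are the same with marked spots left out, where the gene could be tested. Gmnn and Chaf1b stand at 1.60, Tk1 at 1.46 and Mcm3 at 1.39, and the intervals of Pcna, Dut and Pola1 lie on both sides of 0.

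The calls rested on few arrays and on the choice of scaling. With the slide row as a block 0 of these genes passed in either fit, against 747 of 7433 and 797 of 10864 of all tested genes higher. Since row 2 holds no normal array, that fit takes the difference from row 1. Within slide row 1, which holds all normal arrays and fibrosis 1, 2 of 25 passed with marked spots left out (16.3% of all genes) and 3 of 33 with them kept (13.4% of all genes). The members' share was thus below that of all genes, and the median difference there was 0.63 and 0.59. Fibrosis 1 is then the only array of its group and is assumed to vary like the normal arrays. In row 1 alone Gmnn differed by 1.44, Mcm3 by 1.47 and Tyms by 1.11, which passed with marked spots kept (limma adjusted p = 0.0256, 0.0341 and 0.0322), and Tk1 by 0.98, which did not (limma adjusted p = 0.0640).

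Among the 5 licensing genes, 4 were tested with marked spots kept, and Orc1 and Gmnn rose. Gmnn encodes geminin, the inhibitor of Cdt1, which is present from S phase until mitosis. Its levels were -3.61, -3.36 and -3.16 on the normal arrays and -1.94, -2.03 and -1.35 on the fibrosis arrays. Every fibrosis array stood above every normal array, and the difference was 1.60 ± 0.27 (SE, n = 3 and 3, limma adjusted p = 0.00392, marked spots kept), or 3.03-fold. All fits that could be made for Gmnn came from marked spots kept, and its levels on fibrosis 2 and fibrosis 3 rest on marked spots alone.

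Orc1, the ATPase subunit of the origin recognition complex, read -4.92, -4.53 and -5.88 in normal liver and -4.07, -3.67 and -3.65 in fibrosis. The groups did not overlap, and normal 3 was low and below background, so Orc1 came into that fit through its fibrosis arrays alone. The difference of 1.31 ± 0.36 (SE, limma adjusted p = 0.0333) became 0.99 ± 0.26 with marked spots kept (limma adjusted p = 0.0248), since normal 3 then read -4.69 and fibrosis 2 -3.45. Orc6, a smaller subunit of the same complex, did not pass with marked spots kept (1.09, limma adjusted p = 0.0563), although the groups did not overlap, its lowest fibrosis level being -2.94. Cdc6, which brings the helicase to the origin, differed by 0.60 (limma adjusted p = 0.279). Fibrosis 3, at -2.11, was the only array outside the range of -3.81 to -3.24. Cdt1, the loading factor that geminin blocks, read -7.28, -7.47 and -7.49 on the normal arrays, all under background, and -6.88, -5.77 and -6.42 in fibrosis, and it was not tested.

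The helicase genes were the largest group, with 9 of 10 on the arrays and 9 tested. Mcm3, Gins1 and Gins2 rose with marked spots left out, Mcm6 as well with them kept, and none fell. Mcm3, a subunit of the ring that unwinds DNA, read -2.17, -1.79 and -1.55 on the normal arrays and -0.37 and -0.41 on fibrosis 1 and 3. Fibrosis 2, a marked spot, read -0.56. The 3 fibrosis arrays lay closer to each other than the normal arrays did and far above them. The difference was 1.45 ± 0.29 (SE, n = 3 and 2, limma adjusted p = 0.0120) with that spot left out and 1.39 ± 0.25 (SE, n = 3 and 3, limma adjusted p = 0.00478) with it kept. Another, dimmer probe of Mcm3 differed by 1.53 and 1.67 in the same fits.

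Mcm6 was near the threshold, at 0.98 (limma adjusted p = 0.0511) with marked spots left out and 1.07 (limma adjusted p = 0.0308) with them kept. It read -4.92, -4.95 and -4.10 in normal liver and -3.69, -3.38 and -3.70 in fibrosis when marked spots were kept, and normal 3 was the normal array closest to the fibrosis arrays. In Mcm2, too, normal 3 was the highest normal array, with -2.96, -2.68 and -1.90 against -1.09, -1.73 and -1.61. Its difference of 1.04 did not pass (limma adjusted p = 0.0539), and its other probe differed by 1.45. Mcm7 differed by 0.80 (limma adjusted p = 0.0812) and Mcm4 by 0.52 (limma adjusted p = 0.128) with marked spots kept. In both the groups did not overlap, Mcm4 reading -0.15 to 0.15 in normal liver and 0.36 to 0.64 in fibrosis. That probe of Mcm4 was marked on every array, so these levels rest on marked spots alone. Mcm4 was read by a dimmer probe when marked spots were left out, and that probe differed by 0.41.

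Gins1 and Gins2 encode subunits of the GINS complex, which ties the Mcm ring to Cdc45. Gins1 read -3.04, -2.83 and -2.36 in normal liver and -1.56, -2.01 and -1.61 in fibrosis, a difference of 1.02 ± 0.27 (SE, n = 3 and 3, limma adjusted p = 0.0288). Gins2 read -5.04, -5.14 and -4.66 against -4.11, -3.96 and -2.80, a difference of 1.32 ± 0.37 (SE, n = 3 and 3, limma adjusted p = 0.0351). In both genes the groups did not overlap, and in Gins2 fibrosis 3 stood well above the other fibrosis arrays. The same array was the high one for Cdc45, which read -4.13, -4.19 and -3.84 in normal liver and -3.61, -3.10 and -1.60 in fibrosis. Cdc45 differed by 1.28 with an SD of 1.05 among the fibrosis arrays, and it did not pass (limma adjusted p = 0.0917). Mcm10, a scaffold that joins the helicase to primase, was the exception in this group. Its levels were -2.87 to -2.19 in normal liver and -2.67 to -2.57 in fibrosis with marked spots kept, and the difference of -0.12 had a 95% interval of -0.69 to 0.46. It was 0.10 with marked spots left out, over 2 arrays a group, and another probe of Mcm10 differed by -0.41.

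Neither of the tested genes of the polymerases passed. Pola1, the catalytic subunit of the polymerase that extends primers, read -6.08, -6.15 and -5.79 in normal liver and -5.47, -5.80 and -6.74 in fibrosis. The fibrosis arrays fell on both sides of the normal ones, the mean difference was 0.01, and its 95% interval ran from -0.80 to 0.81. Pola1 was dim, above background on only 2 of the 3 fibrosis arrays, and in slide row 1 alone it differed by 0.54. Prim1, the small primase subunit, differed by 0.43 (limma adjusted p = 0.370) with marked spots left out and by 0.56 (limma adjusted p = 0.141) with them kept. Pole, the leading strand polymerase, was under the filter, with a difference of -0.02 over mostly background signals.

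None of the 7 genes of the clamp, its loader, single-strand binding and lagging strand joining passed with marked spots kept, and neither did Rfc5 and Rpa2, which could also be tested with them left out. Pcna, the sliding clamp and a common marker of cycling cells, read 1.11, 1.13 and 0.91 in normal liver and 1.26, 1.45 and 0.70 in fibrosis. Every Pcna spot was marked on every array, so these levels rest on marked spots alone. The fibrosis arrays of Pcna lay on both sides of the normal range. The difference was 0.09 with a 95% interval of -0.52 to 0.69, which does not reach the 1.39 and 1.60 measured for Mcm3 and Gmnn in the same fit. Among the clamp loader subunits, the difference was 0.21 for Rfc3, 0.32 for Rfc4 and -0.08 for Rfc5, with the groups overlapping in each. Rpa2, part of the complex that coats single strands, differed by 0.16.

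Fen1, the nuclease that trims flaps, and Lig1, the ligase that seals nicks, stood apart from the others of this group. Fen1 read 0.30, 0.09 and 0.31 in normal liver and 0.68, 0.91 and 0.88 in fibrosis, with no overlap, and its difference of 0.59 did not pass (limma adjusted p = 0.0862). Lig1 read -1.69, -1.22 and -1.45 against -0.35, -0.13 and -1.15, also without overlap. Fibrosis 3, high for Cdc45 and Gins2, was the lowest fibrosis array for Lig1, whose difference of 0.91 did not pass (limma adjusted p = 0.0687).

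Of the 5 genes that supply deoxynucleotides, 4 were tested with marked spots kept, and Rrm2, Tyms and Tk1 rose. Tk1, the thymidine kinase of S phase cells, read -0.98, -0.99 and -1.34 in normal liver and -0.12, 0.54 and 0.65 in fibrosis. Its levels on normal 1, normal 2 and fibrosis 3 rest on marked spots alone. Each fibrosis array was above each normal array, fibrosis 1 being the nearest, and the difference was 1.46 ± 0.28 (SE, n = 3 and 3, limma adjusted p = 0.00688), or 2.75-fold. Tyms, which makes thymidylate, read -2.21, -2.20 and -2.33 against -1.13, -1.47 and -1.13. For Tyms, the levels on normal 1, normal 2, fibrosis 2 and fibrosis 3 rest on marked spots alone. Its normal arrays agreed within 0.07 (SD), and the difference was 1.00 ± 0.22 (SE, n = 3 and 3, limma adjusted p = 0.0131). Rrm2, the small subunit of ribonucleotide reductase that cells make in S phase, read -0.57, -1.06 and -1.04 against -0.30, 0.19 and 0.19 with marked spots kept. It rose in that fit (0.92, limma adjusted p = 0.0352) and not with marked spots left out (0.84, limma adjusted p = 0.0961), and its other probe differed by 1.36.

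Dut, which removes dUTP, did not follow Tk1 and Tyms. It read -0.60, -0.67 and -1.13 in normal liver and -0.73, -0.70 and -1.02 in fibrosis, and the difference was -0.02 with a 95% interval of -0.59 to 0.55. Rrm1, the large subunit of ribonucleotide reductase, was under the filter with a difference of 0.50.

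Chaf1b, a subunit of the complex that deposits histones on new DNA, had the highest difference with marked spots left out. It read -3.38, -3.75 and -3.37 in normal liver and -2.63, -2.29 and -0.78 in fibrosis, a difference of 1.60 ± 0.46 (SE, n = 3 and 3, limma adjusted p = 0.0381). The groups did not overlap, but the SD was 0.22 among the normal and 0.99 among the fibrosis arrays, with fibrosis 3 the high array. In slide row 1 alone the difference was 0.86.

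Of the 3 regulators of the G1/S step, E2f1 rose and the E cyclins did not pass. E2f1, a transcription factor that activates S phase genes, read -3.40, -3.75 and -3.13 in normal liver and -2.90, -2.10 and -2.10 in fibrosis. Fibrosis 1 lay close to the highest normal array, and the difference was 1.06 ± 0.31 (SE, n = 3 and 3, limma adjusted p = 0.0396). Its other probe, under background on the normal arrays, differed by 1.13. In slide row 1 alone E2f1 differed by 0.53. Ccne1, a cyclin that drives entry into S phase, differed by 0.96 (limma adjusted p = 0.0631), with normal levels of -2.91, -3.49 and -2.53 all below fibrosis levels of -2.35, -2.06 and -1.64. Ccne2 differed by 0.50 (limma adjusted p = 0.237), and its groups overlapped.

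**Figure D3:**
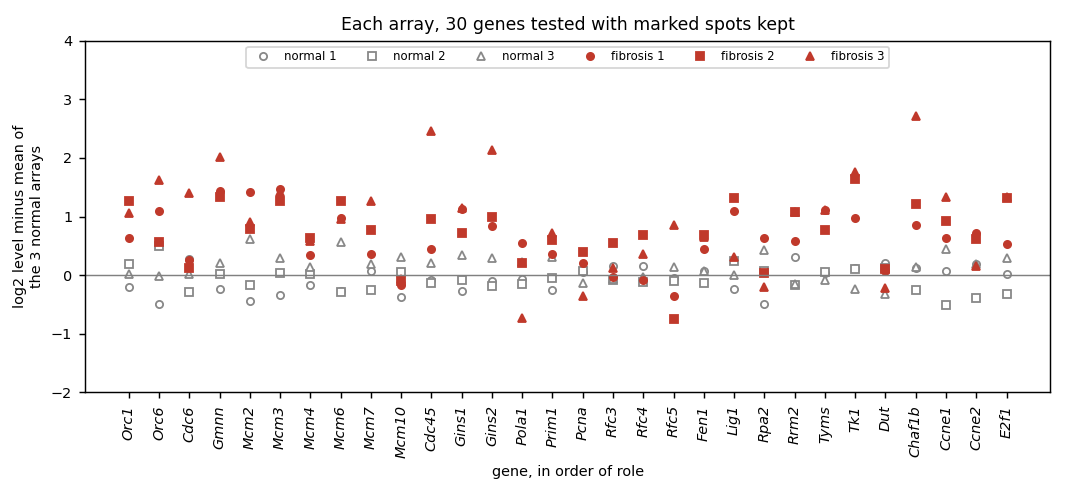
The vertical axis is the log2 level of each array minus the mean of the 3 normal arrays, for the 30 genes tested with marked spots kept, in the order of their roles; open grey symbols are the normal and filled red symbols the fibrosis arrays. Fibrosis 3 stands highest for Cdc45, Gins2 and Chaf1b and lowest for Pola1, and the groups overlap for Pcna and Dut.

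The 3 fibrosis arrays differed in how far these genes stood above normal. Measured from the mean of the normal arrays, the median over 30 genes was 0.61 on fibrosis 1, 0.74 on fibrosis 2 and 1.01 on fibrosis 3. Over all tested genes the median was -0.10, -0.03 and -0.003 on the same arrays, which is the same order. Fibrosis 3 was the highest of all 6 arrays for 15 of the 30 genes, fibrosis 2 for 8 and fibrosis 1 for 5. On the normal arrays the medians were -0.06, -0.09 and 0.17, and normal 3 was the highest normal array for 19 of 30 genes. Among the marker sums, on fibrosis 1, 2 and 3 in turn, the macrophage sum (17.5, 13.7 and 19.8) was highest on fibrosis 3. The genes of that list were split, since Clec4f, Marco and Cd163 were highest and Cd68, Csf1r and Adgre1 lowest on fibrosis 3. Lowest there were the sums of hepatocyte (69.0, 88.9 and 63.6), cholangiocyte (7.78, 8.66 and 7.10), stellate cell and myofibroblast (26.9, 29.7 and 12.8) and endothelial markers (7.95, 10.3 and 7.14). The neutrophil (2.91, 0.717 and 2.58), erythroid (11.6, 20.3 and 13.7) and T, B and NK cell sums (0.961, 1.41 and 1.24) were in between.

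Leaving out 1 array at a time separated the calls that held from those that did not. With marked spots kept, Gmnn, Mcm3 and Tk1 passed in all 6 such fits, with highest adjusted p of 0.0201, 0.0243 and 0.0413. Tyms passed unless normal 2 or normal 3 was left out (0.96 to 1.02, limma adjusted p 0.0558 to 0.0740). Without any 1 of the normal arrays, Gins2 (1.23 to 1.47) and Chaf1b (1.47 to 1.66) no longer passed. Gins1 was lost without normal 1, normal 2 or fibrosis 1 (0.86 to 0.95), Mcm6 without those or fibrosis 2 (0.92 to 1.11), and Orc1 without any normal array or fibrosis 2 (0.85 to 1.08). Rrm2 was lost without normal 2, normal 3, fibrosis 2 or fibrosis 3 (0.84), and E2f1 without any array except fibrosis 1 (0.90 to 1.21). Mcm3 passed, with marked spots left out, in the 5 fits that could be made. In that setting Orc1 passed only without normal 2 and was otherwise at 0.93 to 1.45, and E2f1 only without fibrosis 1 and was otherwise at 0.90 to 1.21. Gins1 was lost without normal 1, normal 2, fibrosis 1 or fibrosis 3 (0.87 to 0.97), Gins2 without any normal array (1.23 to 1.47), and Chaf1b without any normal array or fibrosis 2 (1.47 to 1.79).

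How the arrays were scaled set how many genes passed, but not the side on which their median lay. The count with marked spots left out was 6 of 21 with the 75th percentile, 1 of 21 with quantile normalization, the array median or cyclic loess, 2 of 21 with normexp background correction and 11 of 21 with the E1A control probes, which are made to read RNA spiked into the labelling. It was 11 of 30 with marked spots kept, and 4, 3, 6, 9 and 17 of 30 in the order quantile, array median, loess, normexp and E1A. Of all tested genes, the share called higher with marked spots left out was 18.2% with the 75th percentile, 13.5% with quantile or array median, 15.7% with loess, 14.7% with normexp and 21.4% with E1A. The members' share was 28.6%, 4.76% in each of quantile, array median and loess, 9.52% and 52.4%, so that it was above that of all genes with the 75th percentile and E1A and below it in the others. The all-gene share with marked spots kept was 15.8%, and 12.4%, 12.1%, 14.4%, 13.0% and 18.5% in that same order. The members' share was then close to it with quantile normalization (13.3%), below it with the array median and above it in the others. Scaling moved the median of all tested genes from -0.33 with the array median to 0.38 with E1A (marked spots left out), and the share of higher among all called genes from 46.2% to 93.6%, against 75.9% with the 75th percentile. The median of the replication genes minus that of all genes lay between 0.71 and 0.86 in these 6 settings and between 0.76 and 0.98 with marked spots kept. Over the 6 scalings with marked spots kept, Gmnn, Mcm3 and Tk1 passed in all, at 1.25 to 1.95, 1.03 to 1.73 and 1.10 to 1.80. In that setting 22 of 30 genes were above 0 in every scaling and 13 passed in none. Pcna ran from -0.27 to 0.43, Pola1 from -0.39 to 0.35 and Dut from -0.37 to 0.33, so that their signs depend on the scaling, as did those of Mcm10, Rfc3, Rfc4, Rfc5 and Rpa2.

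**Figure D4:**
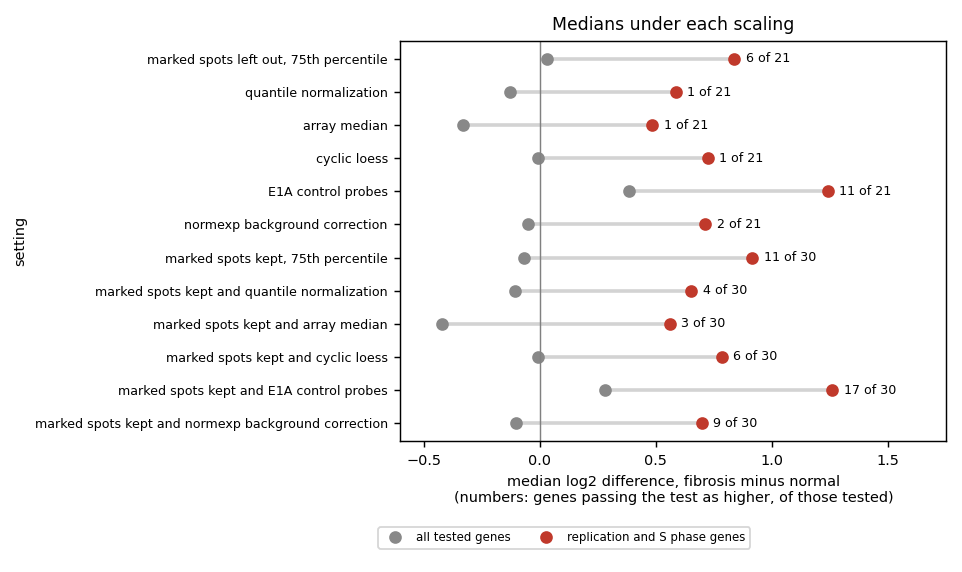
For each setting (vertical axis), the red point is the median log2 difference (fibrosis minus normal, horizontal axis) of the replication and S phase genes and the grey point that of all tested genes, and the numbers beside them count the genes that passed as higher of those tested. The red point is right of the grey one in every setting, by 0.71 to 0.98, while the counts run from 1 of 21 to 17 of 30.

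Other genes of the same processes were taken from lists made by function. Of 37 further replication genes, 30 were on the arrays and 27 were tested with marked spots kept, of which 5 rose (18.5%, near the 15.8% of all genes) and 1 fell, with a median of 0.28. In the fit without marked spots 2 of 15 rose (13.3%, below the 18.2% of all genes) and 0 fell, at a median of 0.51. An unadjusted limma p under 0.05 was reached by 6 of the 15, against 2656 of 7433 among all genes. Pola2, an accessory subunit of the polymerase of Pola1, was above background on no normal array and on all fibrosis arrays, and was at least 3.45-fold higher. Such a bound sets the fibrosis mean against the lowest signal above background on each normal array, or against the gene's own signal there where that is higher. Pola2 came into the test through its fibrosis arrays alone, which also holds for its place in the counts. Chtf18, a clamp loader subunit used in sister chromatid cohesion, rose by 1.85 (limma adjusted p = 0.00850), and Pold1, the catalytic subunit of the lagging strand polymerase, by 1.18 (limma adjusted p = 0.0426, marked spots kept). Pole4, an accessory subunit of the Pole enzyme, fell by 0.87 on the log2 scale (limma adjusted p = 0.0268, marked spots kept).

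Of 18 other S phase genes tested with marked spots kept, 6 rose (33.3%) and 3 fell (16.7%), against 15.8% and 9.12% of all genes. Among those that rose were Dctd, which feeds thymidylate synthesis (2.09), and Asf1b, a histone chaperone (2.03). They were above background on 2 and 1 of the 3 normal arrays, so these differences are partly taken against background signal. Dctd, Asf1b and Dck, which also rose, came into both fits through their fibrosis arrays alone. That also holds for their places in the counts. Those that fell were Hells, a chromatin remodeller (-1.99), Ung, which removes uracil from DNA (-1.40), and Rrm2b, the reductase subunit used outside S phase (-0.98). Hells had 2 probes, of which 1 is given here. In the fit without marked spots, 7 of 16 rose (43.8%) and 3 fell (18.8%), against 18.2% and 5.77% of all genes. Nasp, a histone carrier, was above background on no normal array with its probe in that fit. It came into that fit through its fibrosis arrays alone, and was at least 6.60-fold higher, its own normal signal being the bound. A brighter probe of Nasp, tested with marked spots kept, differed by 0.11 and did not pass, so the probes of Nasp disagree.

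Regulators of the G1/S step outside the 35 gave 4 higher (16.7%, near the 15.8% of all genes) and 1 lower of 24 tested with marked spots kept. With marked spots left out they gave 3 higher (21.4%, near the 18.2% of all genes) and 0 lower of 14. Cdkn2a, which encodes an inhibitor of the cyclin D kinases, was above background on no normal array and at least 7.34-fold higher in fibrosis, and it too came into the test through its fibrosis arrays alone. Ccna2, the cyclin of S phase and G2, rose by 1.91 (limma adjusted p = 0.00201). Cdkn1a, an inhibitor of cyclin kinases, rose by 1.54 with marked spots kept, while another probe tested with marked spots left out differed by 0.20 and did not pass. Skp2, which marks inhibitors for breakdown, rose by 0.96 with marked spots left out (limma adjusted p = 0.0411). Ccna2 and Skp2 each had 2 probes, of which 1 is given here. Rb1, which restrains E2F factors, fell by 1.98 on the log2 scale (limma adjusted p = 0.0375, marked spots kept).

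Genes of mitosis were the group with the most calls, 13 of 15 tested with marked spots kept and 11 of 12 with them left out, at medians of 1.85 and 1.87 and with none lower. The shares of all genes called higher were 15.8% and 18.2%. Cenpf, Ccnb2 and Mybl2 came into both fits through their fibrosis arrays alone, which also holds for their places in these counts. Ccnb2 and Ccnb1, the mitotic B cyclins, rose by 2.93 (above background on 2 of 3 normal arrays) and 2.80, and Ttk, a kinase of the spindle checkpoint, by 2.56 (limma adjusted p = 0.00143, 0.000811 and 0.00175, marked spots kept). Plk1, a kinase that acts at entry into mitosis, rose by 2.21 with marked spots left out. The median difference of the replication genes, 0.91, was below that of the mitosis list, and the difference between the lists was not tested.

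**Figure D5:**
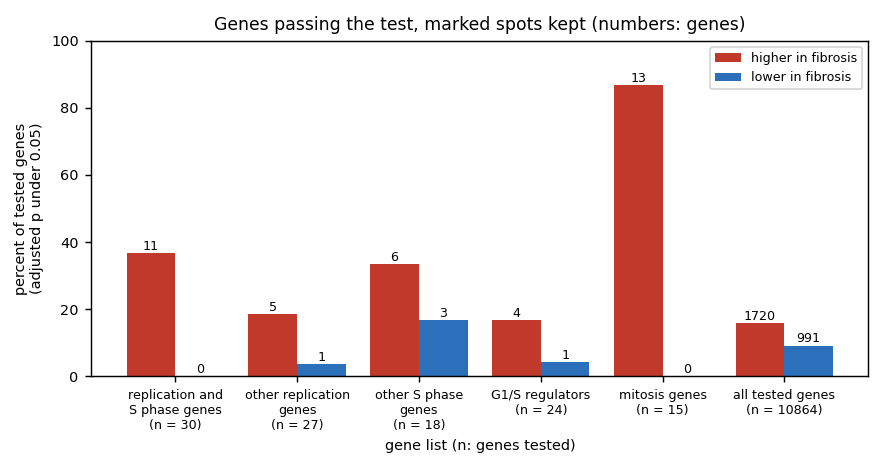
Bars give the percent of tested genes (vertical axis) that were higher (red) or lower (blue) in fibrosis at an adjusted p under 0.05 with marked spots kept, for each gene list and for all tested genes, with the number of genes above each bar. The replication and S phase genes show 11 higher of 30, the mitosis list 13 of 15, and all tested genes 15.8%.

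Set beside the start windows, the genes that rose with marked spots kept held an E2F word in 5 of the 8 that have a window (Gmnn, Mcm3, Mcm6, Gins1 and Tyms), and the tested genes that did not pass in 6 of 16. Tk1, which passed in every fit without 1 array with marked spots kept, had no word in its window, and Pola1, at 0.01, had one. No test was made of these counts.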

How the data were processed

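Liver RNA of 3 normal and 3 bile duct ligated rats was read on 1-colour arrays. The deposited values are processed signal intensities per spot from Agilent Feature Extraction 11.5.1.1, per the file headers, and the deposited files are not scaled between arrays. Control spots were left out, as were spots that the software marked as uneven or as population outliers. The 75th percentile of each array was subtracted on the log2 scale, and the spots of a probe were averaged. A probe was tested when a share of at least 0.5 of its spots were well above background on each valued array of at least 1 group and at least 2 arrays of each group had a value. The probe of highest mean stood for a gene. RefSeq accessions named 18355 of 30367 probes.

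Tests used limma 3.58.1 in R 4.3.3 (lmFit, eBayes), and p-values were adjusted by Benjamini-Hochberg across the genes tested, at a threshold of 0.05. The slide row, read from the headers, was tried as a block and in row 1 alone. The row fits with marked spots kept were added after seeing the data. The members and gene lists were chosen with earlier results of these data known, and no list was tested. The genes named are all members and, from each further list, up to 3 called genes of largest increase and up to 3 of largest decrease, except 1 gene that is not reported here. Tested on simulated data, the fit on 10864 genes with 200 changed recovered 9% of those changed by a log2 size of 1 and 64% of those of size 2, with 4 false calls. In the data 2711 of the 10864 genes passed, so the adjusted threshold was stricter in the simulation. These shares therefore do not give the power of the fits reported here. The number of arrays limits the precision.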

Additional observations from a re-analysis of the deposited data

How the results depend on the processing

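Having 3 arrays a group limits these results, and 24 to 52 of their 102 spots were marked on an array. No paired analysis was possible because the sample titles of the groups share fewer than 2 numbers, and the replicate numbers used here follow the order of the records and pair nothing. The cause of the shifts below was not tested unless the construction shows it.

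Of the 21 members tested with marked spots left out, the 6 called higher became 11 with marked spots kept, 1 with quantile normalization, the array median, cyclic loess or no filter on dim probes, 11 with E1A control probes, 2 with normexp, 0 at an adjusted p under 0.01, 0 with the slide row as a block and 2 in slide row 1. Their median moved to 1.24 with E1A. At an adjusted p under 0.01, where 0 members passed, 795 of all 7433 genes were higher. Without 1 array, the count of higher members ran from 1 to 5, while 890 to 1492 of all tested genes were higher. The count of lower members stayed at 0, and the members' median ran from 0.79 to 0.96. The 11 called with marked spots kept became 4 (quantile), 3 (array median), 6 (loess), 17 (E1A), 0 (row block) and 3 (row 1). Without 1 array they ran from 3 to 10, against 1115 to 1959 of all tested genes, and the members' median from 0.77 to 0.90. Other replication genes called higher (2) became 5 with marked spots kept, 4 with E1A, and 1 with normexp, a filter on all 6 arrays, the row block or row 1, with 2 to 3 without 1 array. Those lower (0) became 1 with marked spots kept, quantile, array median or loess, with 0 to 1 without 1 array. In the kept setting, those higher (5) became 2 (quantile, array median), 3 (loess, normexp) and 1 (row block, row 1), with 2 to 5 without 1 array, and those lower (1) became 2 (quantile, array median, loess) and 0 (E1A, row block, row 1), with 0 to 2 without 1 array.

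Signs turned for members that had not passed. Among those with marked spots left out, Mcm10 (0.10) was at -0.12 with marked spots kept, -0.28 with quantile or array median, -0.094 with loess, -0.18 with the mean of its probes, -0.41 with its dimmer probe and -0.56 to 0.10 without 1 array. Pola1 (0.01) was at -0.39 (quantile), -0.35 (array median), -0.13 (loess), -0.12 (normexp) and -0.26 to 0.37 without 1 array, in both spot settings. Rfc5 (-0.12) was at 0.19 (E1A) and -0.57 to 0.20 without 1 array, and Rpa2 (0.26) at -0.056 (quantile) and -0.10 (array median). When they were kept, Mcm10 was at 0.23 and Rfc5 at 0.26 (E1A), Pcna at -0.27, Rfc3 at -0.14 and Rfc4 at -0.035 (array median), and Rfc3 at -0.028 and Rfc4 at -0.083 in row 1 or with the row block. Rpa2 was at -0.16 (quantile), -0.20 (array median) and -0.021 (loess), and Dut at 0.33 (E1A), 0.14 (normexp) and 0.068 (row 1 or row block). Without 1 array the ranges were -0.30 to 0.041 for Mcm10, -0.069 to 0.31 for Pcna, -0.55 to 0.25 for Rfc5, -0.094 to 0.37 for Rpa2 and -0.18 to 0.084 for Dut.

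Over all genes with marked spots left out, the 1352 higher became 795 at an adjusted p under 0.01 and 747 with the row block. The 429 lower became 991 with marked spots kept, 677 (quantile), 1170 (array median), 108 (E1A), 249 (no filter), 899 (array weights), 106 (adjusted p under 0.01), 97 (row block) and 270 (row 1). Without 1 array they ran from 890 to 1492 higher and from 142 to 524 lower. In the kept setting, the 1720 higher became 797 (row block), and the 991 lower became 2556 (array median), 227 (E1A), 152 (row block) and 596 (row 1), with 1115 to 1959 higher and 344 to 1264 lower without 1 array.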
